A study of Mus musculus with 11 samples.

Results

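The genes described here are 51 mouse genes of DNA damage repair and its signalling, chosen by name, though with earlier results of these data known. Every array feature whose annotated gene symbol was one of the 51 was taken, and the features of a symbol were averaged on each array. Values were found for 50 of the 51, among 19087 genes on the arrays of carcinogen-treated tumours and 16887 genes on the arrays of untreated tumours. Xrcc2, a recombination gene, was not analysed here. No filter on low values was applied, so all 50 genes entered every test.

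The study profiled mammary tumours of female mice that carry the Neu (Erbb2) oncogene under the mouse mammary tumour virus promoter, which drives it mainly in mammary epithelium. Of its 19 samples, 11 tumours were analysed here, and all 11 came from MMTV-Neu+/- animals. In the first group, 5 tumours came from mice treated with dimethylbenzanthracene (DMBA), a polycyclic hydrocarbon whose metabolites form bulky adducts on DNA. In the other group, 6 tumours came from untreated mice of the same genotype. The labels used here give no dose, time or age, and do not say whether each tumour came from a separate mouse. DMBA tumours 3 and 4 share a number in their labels. The p-values given here therefore rest on the spread among these tumours alone, part of which may be technical.

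Each tumour RNA was hybridised on a 2-colour array beside 1 common reference, RNA of the whole mouse. A value is the log2 ratio of tumour over reference, so a value of 1 is a 2-fold higher level in the tumour and 0 is the level of the reference. All DMBA arrays were deposited in a table of 45220 features and all untreated arrays in another of 22575 features. Treatment and array table cannot be told apart, so the groups are set side by side below with no test between them. Array medians lay between -0.01 and 0.01, and arrays of a table correlated at 0.789 to 0.856 for DMBA and 0.886 to 0.941 for untreated tumours. The direction of the ratio was taken from tissue markers: the median of the liver marker list lay between -4.31 and -3.38 in the 11 tumours. Markers of mammary epithelium were called higher than the reference for 9 of 10 genes in either table (list medians 2.85 and 2.39). Adipocyte markers were called lower for 6 of 7 genes in either table, and fibroblast markers for 7 and 8 of 8.

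Cells repair DNA by several routes, each with its own set of proteins. Base excision removes small oxidised or deaminated bases, nucleotide excision cuts out bulky adducts such as those of DMBA, and mismatch repair corrects copying errors. Homologous recombination and end joining rejoin broken strands, the Fanconi genes unhook crosslinks, and translesion polymerases copy past lesions that remain. The kinases Atm and Atr sense breaks and stalled forks and pass the signal to Chek2 and Chek1.

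Repair genes lay mostly a little above the reference in both groups of tumours. By mean, the ligase gene Lig3 was the highest repair gene in either table and the polymerase gene Rev3l the lowest. In the DMBA tumours 24 of the 50 passed the test against the reference (48%, beside 57.8% of all genes). Of these, 20 lay above it (40%, beside 26.1% of all genes) and 4 below (8%, beside 31.7%). The untreated tumours gave 28 calls (56%, beside 60.9% of all genes), 23 above (46%, beside 28.8%) and 5 below (10%, beside 32.1%). A call is a Benjamini-Hochberg adjusted p below 0.05 in limma's moderated test of the mean against 0, two-sided and adjusted over all genes of the table. Because these are bulk tumours, fewer cells of a type and less RNA per cell cannot be told apart in any of these values.

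Most of the differences were small. Means lay within 1 log2 unit of the reference for 44 of the 50 genes in the DMBA tumours (88%, against 72.6% of all genes) and for 45 in the untreated tumours (90%, against 77.5%). The median of the gene means was 0.29 in the DMBA tumours and 0.26 in the untreated tumours, where the median of all genes was -0.02 and 0. Leaving out 1 tumour at a time, the median lay between 0.18 and 0.31 in the DMBA tumours, lowest without DMBA 5. Only 5 genes were called higher by at least 1 log2 unit in the DMBA tumours (Lig3, Ercc2, Ercc3, Ogg1 and Polh), which is 10% beside 8.28% of all genes, and Rev3l was the only one called lower by as much, 2% beside 18.8%. In the untreated tumours Lig3, Atm, Polh and Bard1 were called higher by at least 1 (8% beside 6.8% of all genes), and Rev3l again alone was called lower by as much (2% beside 15.6%). The spread between tumours was also narrow, with a median SD of 0.25 over the repair genes and 0.32 over all genes in the DMBA table, and 0.23 and 0.28 in the untreated table.

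**Figure D1:**
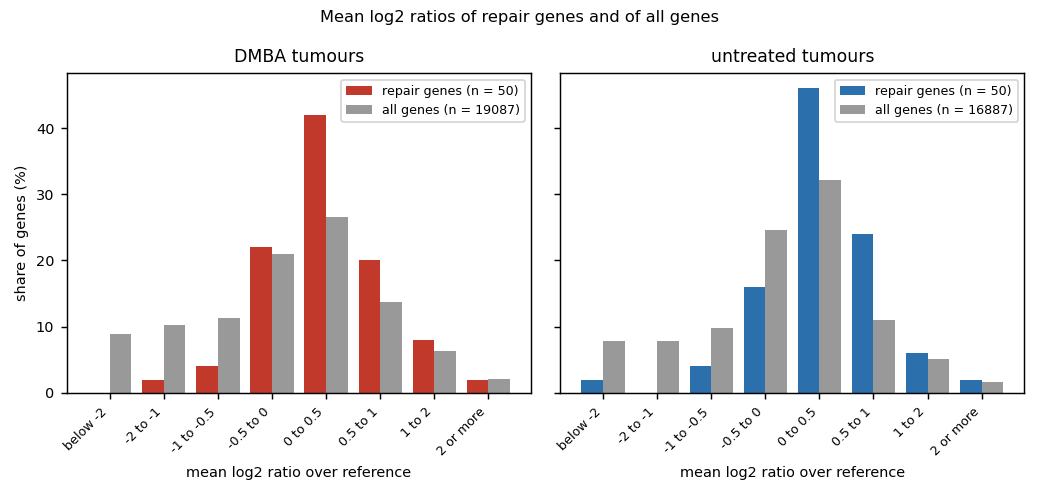
Share of genes (%, vertical axis) in each range of the mean log2 ratio over the reference (horizontal axis), for the 50 repair genes (coloured bars) and for all genes of the table (grey bars), with 5 DMBA tumours at left and 6 untreated tumours at right. Repair genes crowd between -0.5 and 1 in both panels, and below -2 lies no repair gene in the DMBA panel and 1, Rev3l, in the untreated panel.

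The start regions of these genes carried some sequence words more often than those of other genes. RefSeq promoter windows (GRCm38.p6, 250 bases before to 50 after the start) matched 42 of the 50 genes, in 48 windows. Letters of the E2F motif (TTCCCGC, the variant TTGGCGC, the variant TTCGCGC or the variant TTGCCGC, searched on either strand), named for factors known to drive genes of DNA synthesis, were in 22 of the 48 windows (45.8%), beside 13.7% of the windows of genes with values in both tables and 9.57% of all windows. GGGCGG, the core of GC boxes, was in 33 of 48 (68.8%, beside 52.3% and 35.7%). CCAAT was in 24 (50%, beside 37.6% and 37.4%), and GCGTG, the core of the response element of the dioxin receptor that DMBA can bind, was in 27 (56.3%, beside 42.9% and 32.4%). The median GC content was 60.8% in the repair gene windows and 58.3% in those of genes with values in both tables. These shares describe letters in a window and were not tested. The windows printed are those of 7 genes whose call held under every setting tried in at least 1 table. Capitals mark E2F letters and GGGCGG on either strand.
Lig3 (chr11:82780859-82781158, plus strand): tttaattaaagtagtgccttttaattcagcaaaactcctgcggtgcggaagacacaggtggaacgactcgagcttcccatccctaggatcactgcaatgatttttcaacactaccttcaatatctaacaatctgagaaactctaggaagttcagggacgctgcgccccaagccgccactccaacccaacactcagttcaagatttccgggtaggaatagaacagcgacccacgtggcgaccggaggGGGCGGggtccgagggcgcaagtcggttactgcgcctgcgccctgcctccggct
Atm (chr9:53536622-53536921, minus strand): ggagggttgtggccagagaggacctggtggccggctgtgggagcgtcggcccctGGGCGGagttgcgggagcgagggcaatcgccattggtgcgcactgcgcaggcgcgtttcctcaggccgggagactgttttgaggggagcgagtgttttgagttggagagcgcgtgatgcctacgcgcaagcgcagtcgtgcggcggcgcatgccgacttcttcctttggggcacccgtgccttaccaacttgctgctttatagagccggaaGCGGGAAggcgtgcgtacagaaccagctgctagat
Ogg1 (chr6:113326726-113327025, plus strand): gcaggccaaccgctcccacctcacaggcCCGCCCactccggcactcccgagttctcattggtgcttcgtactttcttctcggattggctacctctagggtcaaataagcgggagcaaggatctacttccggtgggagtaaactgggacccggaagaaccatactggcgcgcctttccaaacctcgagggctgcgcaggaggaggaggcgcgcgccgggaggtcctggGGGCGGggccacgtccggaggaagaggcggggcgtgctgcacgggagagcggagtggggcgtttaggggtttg
Ercc4 (chr16:13109486-13109785, plus strand): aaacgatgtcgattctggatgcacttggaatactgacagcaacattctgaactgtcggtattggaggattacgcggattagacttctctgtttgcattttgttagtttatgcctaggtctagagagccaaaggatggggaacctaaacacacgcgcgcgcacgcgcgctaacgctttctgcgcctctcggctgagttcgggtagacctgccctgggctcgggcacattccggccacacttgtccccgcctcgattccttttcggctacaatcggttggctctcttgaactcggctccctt
Polh (chr17:46202592-46202891, minus strand): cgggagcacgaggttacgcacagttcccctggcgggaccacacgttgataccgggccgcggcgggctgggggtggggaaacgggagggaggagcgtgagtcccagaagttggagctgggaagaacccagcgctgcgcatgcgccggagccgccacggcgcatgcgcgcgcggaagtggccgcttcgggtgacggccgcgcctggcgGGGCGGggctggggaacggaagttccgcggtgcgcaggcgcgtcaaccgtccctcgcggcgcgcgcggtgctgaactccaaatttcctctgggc
Bard1 (chr1:71102923-71103222, minus strand): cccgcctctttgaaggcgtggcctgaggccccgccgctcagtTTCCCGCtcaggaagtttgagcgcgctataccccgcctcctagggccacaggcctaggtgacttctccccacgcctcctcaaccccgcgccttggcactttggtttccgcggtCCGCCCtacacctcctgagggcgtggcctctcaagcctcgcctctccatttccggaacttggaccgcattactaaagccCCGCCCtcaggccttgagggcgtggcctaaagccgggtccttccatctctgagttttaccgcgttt
Msh6 (chr17:87974800-87975099, plus strand): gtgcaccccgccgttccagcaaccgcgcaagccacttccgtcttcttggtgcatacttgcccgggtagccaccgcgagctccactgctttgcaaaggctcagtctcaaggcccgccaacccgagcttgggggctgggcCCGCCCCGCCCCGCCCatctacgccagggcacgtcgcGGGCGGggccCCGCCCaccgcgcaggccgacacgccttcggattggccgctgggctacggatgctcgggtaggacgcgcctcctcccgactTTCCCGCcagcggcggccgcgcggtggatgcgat
E2F letters appear in the windows of Atm, Bard1 and Msh6, and none are in those of Lig3, Ogg1, Ercc4 and Polh. Both kinds of window thus include genes that lay above the reference, and Msh6, with 5 copies of GGGCGG, lay below it in the DMBA tumours. Lig3 has 1 copy of GGGCGG and Ercc4 has none.

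**Figure D2:**
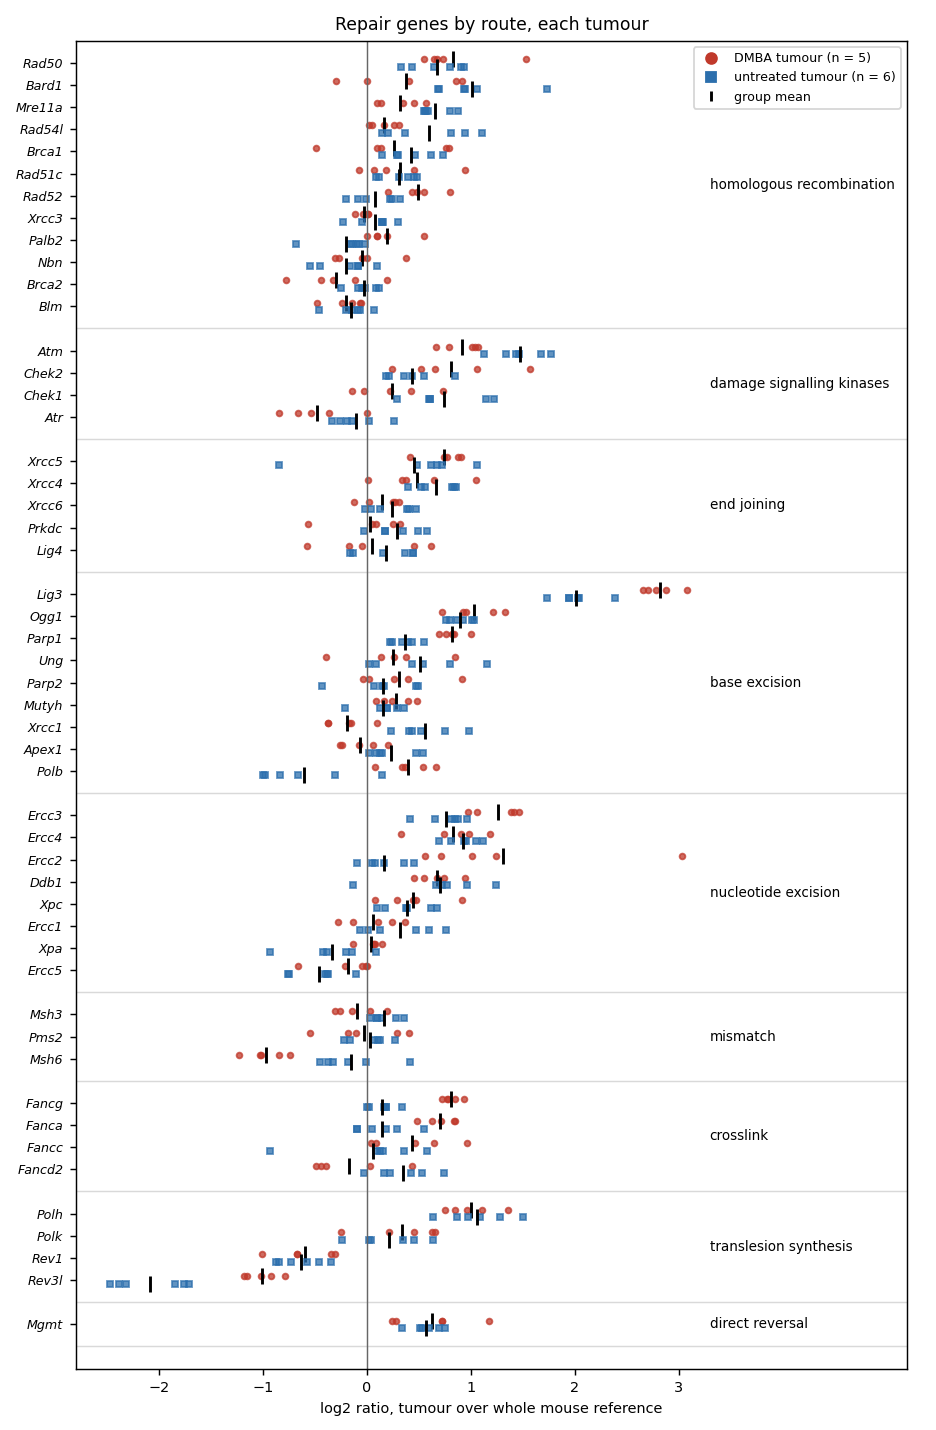
Log2 ratio of tumour over whole mouse reference (horizontal axis) for each of 50 repair genes (rows, grouped by route), with 1 point per DMBA tumour (circles, n = 5) and untreated tumour (squares, n = 6) and a bar at each group mean. Lig3 stands at the right of the other genes except in DMBA 3 (Ercc2, 3.03) and untreated 6 (Bard1, 1.735 against 1.733), Rev3l stands at the left in all untreated tumours, and most rows lie within 1 of the zero line.

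Base excision repair held the highest repair gene, Lig3, which encodes a ligase that seals nicks with the scaffold protein Xrcc1 and also works in mitochondria. Lig3 was 2.65, 3.08, 2.71, 2.88 and 2.78 in DMBA tumours 1 to 5. Its untreated values ran from 1.73 to 2.39 with a median of 1.99. Every tumour was therefore well above the reference, and the lowest DMBA tumour was above the highest untreated one. The DMBA mean was 2.82 ± 0.17 (SD, n = 5; 7.07-fold; limma adjusted p = 1.66e-06) and the untreated mean 2.02 ± 0.21 (n = 6; 4.04-fold; limma adjusted p = 1.22e-07). Of the features for Lig3 in the DMBA table, 1 averaged 3.44 and the other 2.21, and the feature of the untreated table averaged 2.02. The lower DMBA feature ran from 2.09 to 2.39, within the untreated range, so the gap between the groups rests on averaging the 2 features.

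Ogg1, the glycosylase that removes oxidised guanine, was 0.72, 1.22, 0.93, 1.33 and 0.96 in the DMBA tumours. Its untreated values ran from 0.76 to 1.03 with a median of 0.90, so the groups overlapped and every tumour was above the reference. Its means were 1.03 ± 0.24 (limma adjusted p = 0.000351) and 0.90 ± 0.11 (limma adjusted p = 1.08e-05). Parp1, the sensor of strand breaks that makes poly(ADP-ribose), was called higher at 0.82 ± 0.11 and 0.36 ± 0.12.

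Polb, the polymerase that fills the gap left by base removal, was the only repair gene called in opposite directions in the tables (2% of the 50, beside 1.82% of all genes). It was 0.37, 0.08, 0.66, 0.54 and 0.34 in the DMBA tumours (mean 0.40 ± 0.22, limma adjusted p = 0.0221). In the untreated tumours it ran from -1.001 to 0.15 with a median of -0.75 (mean -0.61 ± 0.45, limma adjusted p = 0.00801). The groups overlapped because untreated tumour 4 stood at 0.15, inside the DMBA range. The 3 Polb features of the DMBA table averaged 0.42, 1.04 and -0.27, so they did not share a sign. The DMBA call was lost in 5 of 15 alternative settings, among them without DMBA 1, 3 or 4 (limma adjusted p = 0.0564 to 0.0776). Over the feature of the DMBA table that shares its annotated accession with the untreated feature, the values were 0.42 and -0.61, and the groups no longer overlapped. That comparison was added after the data were seen.

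The other base excision genes lay nearer to the reference. The uracil glycosylase gene Ung averaged 0.25 ± 0.45 in the DMBA tumours and 0.51 ± 0.43 in the untreated tumours, where it was called higher. Xrcc1 averaged -0.19 ± 0.20 and 0.56 ± 0.27, called higher in the untreated tumours, and every DMBA value was below every untreated value. Mutyh, Apex1 and Parp2 passed the test in neither table, with means between -0.06 and 0.31. In all, 4 of 9 base excision genes were called higher in the DMBA tumours (44.4%, beside 26.1% of all genes) and none lower (beside 31.7%). The untreated tumours had 5 called higher (55.6%, beside 28.8%) and 1 lower (11.1%, beside 32.1%). Of 14 further base excision genes in the DMBA table, from the list described below, 4 were called higher (28.6%) and 2 lower (14.3%). Of 12 in the untreated table, 5 were called higher (41.7%) and 4 lower (33.3%).

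Of the 8 nucleotide excision genes described here, 5 were called higher in the DMBA tumours (62.5%, beside 26.1% of all genes) and none lower (beside 31.7%). In the untreated tumours 4 were called higher (50%, beside 28.8%) and 2 lower (25%, beside 32.1%). The median of the 8 means was 0.56 and 0.35. The further list described below held 16 other nucleotide excision genes with a value in each table, with medians of 0.06 and 0.21. Of these, 3 were called higher (18.8%) and 1 lower (6.25%) in the DMBA tumours. In the untreated tumours 6 were called higher (37.5%) and 2 lower (12.5%). The genes for the 2 helicases of the TFIIH complex, which open the DNA around an adduct, both stood high in the DMBA tumours. Ercc3 (XPB) was 1.41, 0.97, 1.39, 1.46 and 1.06 there, and ran from 0.41 to 0.97 with a median of 0.83 in the untreated tumours. DMBA tumour 2, at 0.973, only just exceeded the highest untreated tumour, at 0.967. The means were 1.26 ± 0.22 (2.40-fold, limma adjusted p = 0.000108) and 0.76 ± 0.20 (1.70-fold, limma adjusted p = 0.000106).

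Ercc2 (XPD) was 0.71, 1.24, 3.03, 0.56 and 1.01 in the DMBA tumours. Untreated values ran from -0.10 to 0.46 with a median of 0.13. All DMBA tumours were above all untreated ones, and DMBA 3 stood far above the other DMBA tumours. The DMBA mean was 1.31 ± 0.998 (limma adjusted p = 0.0170), and without DMBA 3 it was 0.88. The untreated mean of 0.17 ± 0.21 did not pass the test.

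Ercc4 (XPF), which with Ercc1 cuts the damaged strand, was 0.90, 1.19, 0.99, 0.33 and 0.75 in the DMBA tumours and 0.69 to 1.11, with a median of 0.95, in the untreated tumours. The groups overlapped, at means of 0.83 ± 0.32 and 0.93 ± 0.16, both called higher. Ercc5 (XPG), which makes the other cut, was the lowest gene of this route. It was -0.21, -0.04, -0.003, -0.0025 and -0.66 in the DMBA tumours (mean -0.19 ± 0.28, not called). It ran from -0.75 to -0.10 with a median of -0.39 in the untreated tumours, and its mean there of -0.46 ± 0.25 was called lower (limma adjusted p = 0.00467).

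The damage recognition genes were split. Ddb1, a part of the ligase complex that recognises ultraviolet damage, was called higher at 0.67 ± 0.19 and 0.71 ± 0.46. Xpc, which finds distorted DNA, was called higher at 0.44 ± 0.31 and 0.39 ± 0.23, but its DMBA call was lost in 6 of 15 settings, among them without DMBA 1, 3, 4 or 5 (limma adjusted p = 0.0532 to 0.0833). Xpa, which checks the damage, averaged 0.04 ± 0.11 in the DMBA tumours and -0.33 ± 0.35 in the untreated tumours, a lower call lost in 10 of 15 settings, among them without any 1 tumour other than untreated 2 (limma adjusted p = 0.0653 to 0.119). The DMBA mean of Xpa and its small SD come from averaging features of opposite sign. Of these, 1 averaged 0.52 (0.32 to 1.099) and the other -0.43 (-0.95 to -0.14). The untreated features of Xpa averaged -0.30 and -0.36. Ercc1 passed in neither table, at 0.06 ± 0.26 and 0.32 ± 0.34.

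Among the signalling kinases, Atm, the kinase switched on by DNA breaks, was called higher in both tables. It was 1.01, 0.79, 1.07, 0.66 and 1.04 in the DMBA tumours. Untreated values ran from 1.13 to 1.77 with a median of 1.45, so every DMBA value was below every untreated value. The means were 0.91 ± 0.18 (1.88-fold, limma adjusted p = 0.000342) and 1.47 ± 0.23 (2.77-fold, limma adjusted p = 1.62e-06). The 11 Atm features of the DMBA table all averaged above 0, from 0.42 to 1.22, and the untreated table held 1 feature. Single features overlapped the untreated values, with DMBA values up to 1.45. Over features of shared accessions the highest DMBA value was 1.11, just under the lowest untreated value of 1.13.

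Atr, the kinase that answers to stalled forks, was on the other side of the reference. It was -0.36, -0.84, -0.54, -0.000167 and -0.66 in the DMBA tumours (mean -0.48 ± 0.32, limma adjusted p = 0.0231), with DMBA 4 at the reference level. In the untreated tumours it ran from -0.33 to 0.26 with a median of -0.17 (mean -0.11 ± 0.22, not called). The groups overlapped, and the DMBA call was lost in 6 of 15 settings, among them without DMBA 2, 3 or 5 (limma adjusted p = 0.0622 to 0.0665). Chek2, which acts after Atm, was called higher at 0.81 ± 0.52 and 0.43 ± 0.24. Chek1, which acts after Atr, was called higher in the untreated tumours (0.75 ± 0.36) and averaged 0.25 ± 0.35 in the DMBA tumours.

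Homologous recombination had 3 of 12 genes called higher in the DMBA tumours (25%, near the 26.1% of all genes) and 6 in the untreated tumours (50%, beside 28.8%). None of the 12 was called lower, beside 31.7% and 32.1% of all genes. Of 19 further recombination genes, 2 were called higher (10.5%) and 7 lower (36.8%) in the DMBA tumours. In the untreated tumours 8 were called higher (42.1%) and 4 lower (21.1%). Rad50 and Mre11a, subunits of the complex that binds and trims broken ends, were called higher in both tables. Rad50 was 0.65, 0.74, 0.67, 1.53 and 0.55 in the DMBA tumours (mean 0.83 ± 0.40). It ran from 0.33 to 0.93 with a median of 0.73 in the untreated tumours (mean 0.67 ± 0.25). The groups overlapped, with DMBA 4 far above the rest. That height rests on 1 feature, at 2.92 in DMBA 4, where the other Rad50 feature was 0.15. Over features of shared accessions the DMBA mean was 0.43 and the call was lost (limma adjusted p = 0.0677). Mre11a averaged 0.32 ± 0.20 and 0.66 ± 0.14, and its DMBA call was lost in 7 of 15 settings, among them without DMBA 1, 2, 3 or 4 (limma adjusted p = 0.0506 to 0.123). Nbn, the third subunit, passed in neither table, at -0.05 ± 0.27 and -0.20 ± 0.25. Its DMBA mean near 0 is an average of features that disagreed. Of these, 1 averaged 0.42 and was above 0 in every DMBA tumour (0.15 to 0.55). Another averaged -0.41 and was below 0 in every one (-0.58 to -0.28), and the last averaged -0.15.

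Bard1, the partner of Brca1, had the highest mean of the route in the untreated tumours. It ran there from 0.68 to 1.74 with a median of 0.94 (mean 1.01 ± 0.39, limma adjusted p = 0.000197), highest in untreated tumour 6. In the DMBA tumours it was -0.30, 0.86, 0, 0.92 and 0.41, where DMBA 3 is listed at exactly 0, and its mean of 0.38 ± 0.53 was not called. Brca1 itself was called higher in the untreated tumours (0.43 ± 0.22) and averaged 0.26 ± 0.53 in the DMBA tumours. Brca2 and Palb2, whose proteins act together in recombination, passed in neither table. Brca2 averaged -0.29 ± 0.36 and -0.03 ± 0.13, and Palb2 averaged 0.19 ± 0.21 and -0.20 ± 0.24.

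Blm, the helicase mutated in Bloom syndrome, had the lowest average of both tables' means in the route, though Brca2 was lower in the DMBA table and Nbn in the untreated table. It was -0.15, -0.05, -0.48, -0.24 and -0.07 in the DMBA tumours (mean -0.20 ± 0.18). It ran from -0.46 to 0.07 with a median of -0.11 in the untreated tumours (mean -0.15 ± 0.18), and neither mean passed the test. Rad51c and Rad54l were called higher in the untreated tumours, at 0.31 ± 0.17 and 0.60 ± 0.41, and averaged 0.32 ± 0.40 and 0.16 ± 0.13 in the DMBA tumours. The Rad51c call was lost without untreated 1 (limma adjusted p = 0.0527). Rad52 was called higher in the DMBA tumours (0.50 ± 0.21) and averaged 0.08 ± 0.21 in the untreated tumours. Xrcc3 averaged -0.03 ± 0.06 and 0.08 ± 0.19.

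End joining, which ligates broken ends without a template, had 2 of 5 genes called higher in either table (40%, beside 26.1% of all genes in the DMBA and 28.8% in the untreated table) and none lower (beside 31.7% and 32.1%). Xrcc5 (Ku80), which caps the ends together with Xrcc6 (Ku70), was 0.88, 0.74, 0.91, 0.77 and 0.41 in the DMBA tumours (mean 0.74 ± 0.20, limma adjusted p = 0.00111). It ran from -0.84 to 1.06 with a median of 0.65 in the untreated tumours. There untreated tumour 4 alone was below 0, and the mean of 0.45 ± 0.66 was not called. Xrcc4, the partner of Lig4, was called higher at 0.48 ± 0.39 and 0.67 ± 0.20, with the DMBA call lost in 5 of 15 settings, among them without DMBA 1, 2, 4 or 5 (limma adjusted p = 0.0638 to 0.104).

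Lig4, the ligase of the route, was -0.17, -0.58, 0.46, 0.61 and -0.05 in the DMBA tumours. It ran from -0.16 to 0.45 with a median of 0.26 in the untreated tumours. Both groups spanned the reference and overlapped, and neither mean passed (0.05 ± 0.48 and 0.19 ± 0.28). Prkdc, the catalytic subunit of the DNA-dependent kinase, averaged 0.03 ± 0.35 and 0.29 ± 0.23, the latter called higher. That call was lost in 4 of 15 settings, among them without untreated 1, 3 or 6 (limma adjusted p = 0.0709 to 0.101). Xrcc6 averaged 0.15 ± 0.19 and 0.24 ± 0.21, called in neither. Of 9 further end joining genes, 5 were called higher (55.6%) and 1 lower (11.1%) in the DMBA tumours. In the untreated tumours 4 were called higher (44.4%) and 1 lower (11.1%).

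Translesion synthesis held both a gene well above the reference and the lowest of all 50. Polh, the polymerase that copies past ultraviolet lesions, was 0.96, 0.85, 1.11, 0.75 and 1.36 in the DMBA tumours. It ran from 0.64 to 1.51 with a median of 1.03 in the untreated tumours, and the groups overlapped. Its means were 1.01 ± 0.24 (limma adjusted p = 0.000373) and 1.06 ± 0.31 (limma adjusted p = 5e-05). Polk, known for copying past bulky hydrocarbon adducts, passed in neither table, at 0.34 ± 0.37 and 0.21 ± 0.32.

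Rev3l, the catalytic subunit of polymerase zeta, was -1.02, -0.79, -1.18, -1.16 and -0.92 in the DMBA tumours. It ran from -2.48 to -1.72 with a median of -2.08 in the untreated tumours. All tumours were below the reference, and the untreated ones were below every DMBA tumour. The means were -1.01 ± 0.17 (limma adjusted p = 0.000186) and -2.08 ± 0.35 (limma adjusted p = 7.05e-07). The gap rests on averaging features that disagreed: 1 Rev3l feature of the DMBA table averaged -2.45 (from -2.68 to -2.19), within reach of the untreated values, and the other averaged 0.43 (from 0.05 to 0.99). Rev1, the scaffold of the translesion polymerases, was called lower at -0.60 ± 0.29 and -0.64 ± 0.21.

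**Figure D3:**
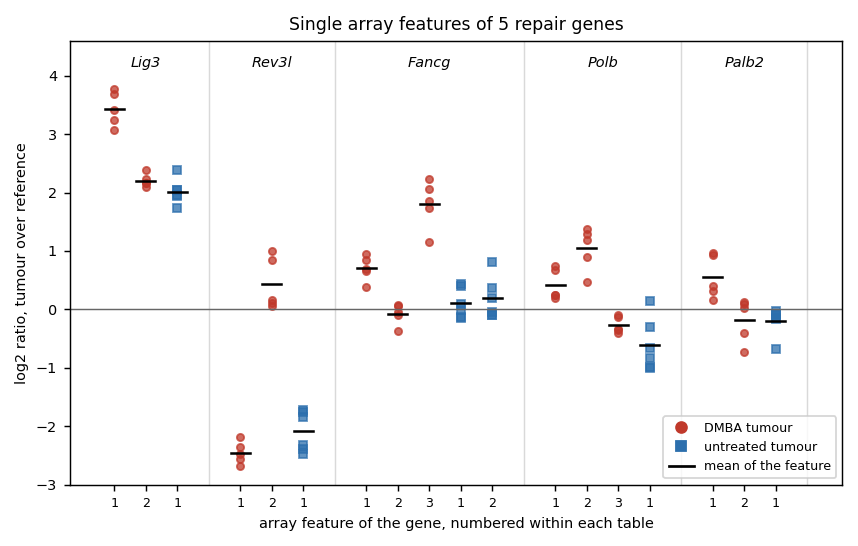
Log2 ratio over the reference (vertical axis) of each array feature of 5 repair genes (horizontal axis, features numbered within a table), with 1 point per DMBA tumour (circles, n = 5) or untreated tumour (squares, n = 6) and a line at the mean. The Rev3l features of the DMBA table lie at -2.45 and 0.43, and those of Fancg at 0.71, -0.08 and 1.81.

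Among the 3 mismatch repair genes described here, only Msh6, whose protein helps to find mispaired bases, was called in either table. Msh6 was -0.85, -1.23, -0.74, -1.02 and -1.02 in the DMBA tumours (mean -0.97 ± 0.19, limma adjusted p = 0.000271). It ran from -0.45 to 0.42 with a median of -0.25 in the untreated tumours (mean -0.15 ± 0.32, not called). Every DMBA tumour was below every untreated one. Msh3, whose protein helps to find larger loops, was 0.03, -0.25, 0.20, -0.14 and -0.31 in the DMBA tumours and 0.03 to 0.35, with a median of 0.13, in the untreated tumours. Msh3 (-0.10 ± 0.21 and 0.17 ± 0.12) and Pms2 (-0.03 ± 0.38 and 0.03 ± 0.19) passed in neither table. In the further list of repair genes described below, 2 mismatch genes had a value in each table. Both were called higher in either table (100%, beside 26.1% and 28.8% of all genes), with medians of 0.73 and 0.44.

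Of the Fanconi genes of crosslink repair, Fanca and Fancg, subunits of the core ligase complex, were called higher in the DMBA tumours. Fancg was 0.77, 0.85, 0.78, 0.94 and 0.72 there (mean 0.81 ± 0.08, limma adjusted p = 0.000291). It ran from -0.0015 to 0.34 with a median of 0.18 in the untreated tumours (mean 0.15 ± 0.12, not called). The groups did not overlap, but the 3 Fancg features of the DMBA table averaged 0.71, -0.08 and 1.81. Fanca averaged 0.70 ± 0.15 and 0.15 ± 0.25.

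Fancd2, which the core complex tags with ubiquitin, was -0.49, 0.03, -0.39, -0.45 and 0.43 in the DMBA tumours (mean -0.17 ± 0.40, not called). It ran from -0.02 to 0.74 with a median of 0.33 in the untreated tumours (mean 0.34 ± 0.28), a higher call that was lost in 4 of 15 settings, among them without untreated 2, 4 or 6 (limma adjusted p = 0.0548 to 0.0676). Fancc passed in neither table, at 0.44 ± 0.39 and 0.06 ± 0.52. Mgmt, which takes alkyl groups directly off guanine, was 1.17, 0.72, 0.28, 0.72 and 0.24 in the DMBA tumours. It ran from 0.34 to 0.76 with a median of 0.57 in the untreated tumours. The groups overlapped with every tumour above the reference, and both means were called higher (0.63 ± 0.38 and 0.57 ± 0.15).

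Set side by side, the groups did not overlap for 10 of the 50 genes (20%), beside 18.2% of all 16351 genes in both tables, so the count is near the background. DMBA tumours were all above untreated ones for Palb2, Lig3, Parp1, Ercc2, Ercc3, Fancg and Rev3l (14%, beside 8.37% of all genes). They were all below for Atm, Xrcc1 and Msh6 (6%, beside 9.84%). Means were at least 1 apart without overlap for Ercc2 (1.14 apart) and Rev3l (1.07 apart), which is 4% beside 8.34% of all genes. Without DMBA 3, or without untreated tumour 1, 1 gene was left in that class. The Rev3l gap rests on averaging features that disagreed, as given above. Of the 15 genes with 1 feature in each table, 4 did not overlap (26.7%, beside 16.02% of 8351 genes), 2 all above and 2 all below, and 1 of them was at least 1 apart. Treatment and array table cannot be told apart in any of these differences.

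**Figure D4:**
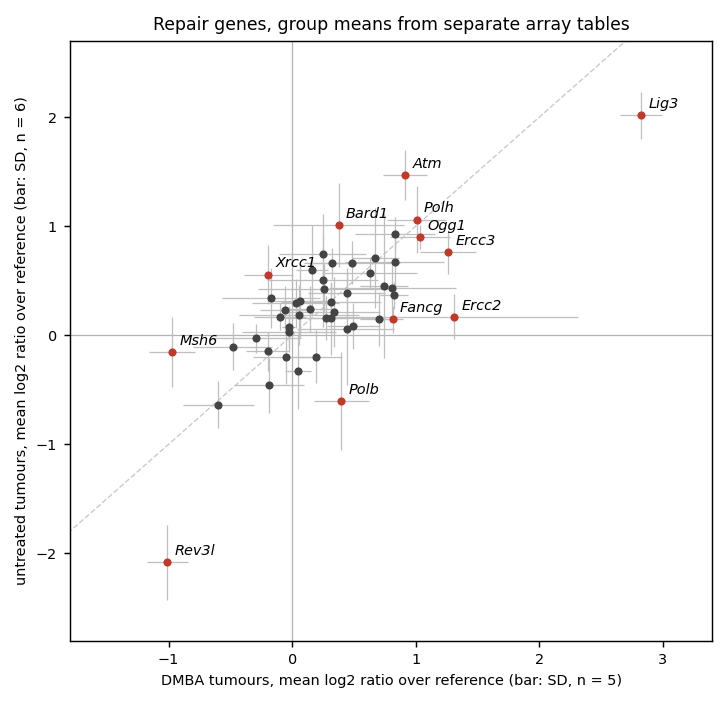
Mean log2 ratio over the reference of 50 repair genes in the DMBA tumours (horizontal axis, n = 5) and in the untreated tumours (vertical axis, n = 6), each from its own array table, with bars of 1 SD and a dashed line of equal values. Named red points are a selection of the genes described, among them Lig3 at 2.82 and 2.02, Rev3l at -1.01 and -2.08, and Polb at 0.40 and -0.61.

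The features of a gene did not always share a level. Of the 50 genes, 35 had several features in the DMBA table, and for 4 of them (Rev3l, Fancg, Polb and Lig3) the feature averages were 1 or more apart. For 11 of the 35 the feature averages lay on both sides of 0. In the untreated table only Fancg and Xpa had several features. With features of shared accessions only, a choice made after the data were seen, 20 genes were called higher in the DMBA tumours and 3 lower. In that setting 9738 of all 15729 genes were called, and Rad50 was no longer called. The groups did not overlap for 10 genes (20%, beside 16.9% of 15660 genes), with Polb among them and Palb2 not.

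A further list of 109 repair genes, written down by route, gave the surroundings of these 50. In the DMBA tumours 29 of the 99 with a value were called higher (29.3%, near the 26.1% of all genes) and 17 lower (17.2%, beside 31.7%). In the untreated tumours 39 of 93 were called higher (41.9%, beside 28.8%) and 20 lower (21.5%, beside 32.1%). Their medians were 0.04 and 0.19. The highest of the list in the DMBA tumours were the demethylase gene Alkbh2 (1.98 ± 0.57), the end joining polymerase gene Poll (1.69 ± 0.12), the TFIIH subunit gene Gtf2h3 (1.11 ± 0.29) and the translesion polymerase gene Poli (1.09 ± 0.17). The highest in the untreated tumours were Ddb2 (2.48 ± 1.13), Alkbh2 (1.61 ± 0.17), Poli (1.48 ± 0.31) and the recombination gene Rad51d (1.32 ± 0.24).

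Ddb2, the partner of Ddb1 in finding ultraviolet damage, varied most widely of these. It ran from 0.62 to 4.18 in the untreated tumours (limma adjusted p = 0.000241) and averaged 0.08 ± 0.38 in the DMBA tumours, where it was not called. Gtf2h3 averaged -0.25 ± 0.55 in the untreated tumours and was not called there. The lowest called genes in the DMBA tumours were the fork protection gene Tipin (-1.66 ± 0.24), the histone gene H2ax that marks breaks (-1.38 ± 0.08), the recombination mediator Sfr1 (-1.17 ± 0.33) and the glycosylase gene Neil3 (-0.93 ± 0.56). The lowest in the untreated tumours were Neil3 (-1.58 ± 0.27), H2ax (-1.03 ± 0.27), Tipin (-0.97 ± 0.17) and the chromosome structure gene Smc5 (-0.85 ± 0.28).

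Several repair genes are known to be made mainly in dividing cells. Of 20 genes of mitosis and DNA replication, 4 were called higher (20%, beside 26.1% of all genes) and 1 lower (5%, beside 31.7%) in the DMBA tumours. In the untreated tumours 8 were called higher (40%, beside 28.8%) and none lower (beside 32.1%). The median of that list ran from -0.26 in DMBA 3 to 0.59 in DMBA 5, and from 0.13 to 0.34 in the untreated tumours. The part of cell division in the repair gene values was not tested.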

How the data were processed

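Total RNA of 5 DMBA and 6 untreated tumours was measured on 2-colour arrays against whole mouse reference RNA, per the labels. The deposited values are log2 ratios, 1 per feature and array. The base of the log was taken from their range (-10.7 to 8.37), and their direction, which the labels' dye fields do not settle, from tissue markers that are low. Background correction and normalization by the authors are not given in the sources used here. Exact zeros (83 to 1035 per array) were kept, and array signals, and so precision per feature, are not known here.

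Features with 1 annotated symbol (33653 and 18658) were averaged per symbol and array; features with several symbols (56 and 30) or none (11511 and 3887) were left out. Each table was fitted in limma 3.58.1 (R 4.3.3, lmFit and eBayes, intercept only), tested two-sided against 0 with Benjamini-Hochberg adjustment over all its genes, and the fit was tested on simulated data. The tables come from separate arrays, so no test between groups was made. Tumours are numbered in order of deposit.

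The members and lists were chosen with earlier results of these data known. For some genes the values per DMBA tumour are given, with the range and median of the untreated tumours. These are genes called with a mean of at least 1 in size, called in opposite directions, or apart by at least 1 without overlap. The highest and lowest gene of each route are given in the same way. Of the other repair genes the 4 highest and 4 lowest called ones of each table are named. Symbols were updated through RefSeq synonyms, which also gave the promoter windows. Alternatives were leaving out tumours, other ways to join features, other scalings, zeros as missing, robust variances, a 1.5-fold threshold and DMBA 3 and 4 averaged.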

Additional observations from a re-analysis of the deposited data

Results flagged for a closer look

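In 6 of 100 groups of values tested (50 genes in each table), 1 tumour stood apart from the rest by Dixon's criterion, which chance meets in about 1 of 20 groups. Rad50 was 1.53 in DMBA 4 and 0.55 to 0.74 in the other DMBA tumours. Its features disagreed in DMBA 4, at 2.92 and 0.15, so only 1 of them was high there. Ercc2 was 3.03 in DMBA 3 and 0.56 to 1.24 in the others. Bard1 was 1.74 in untreated 6 and 0.68 to 1.06 in the others. The other 3 lie in untreated 4, which was low: Palb2 at -0.68 against -0.16 to -0.02, Xrcc5 at -0.84 against 0.49 to 1.06, and Fancc at -0.93 against 0.08 to 0.58. Without that tumour the untreated means were -0.10 for Palb2, 0.71 for Xrcc5 and 0.26 for Fancc.

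Palb2 lay on opposite sides of the reference in the groups: all DMBA tumours were above 0 (mean 0.19) and all untreated tumours below it (mean -0.20), 0.39 apart. That difference was not tested, and group and array table cannot be told apart. Over the DMBA feature that shares its accession with the untreated one, the DMBA mean was -0.18 and the groups overlapped.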

How the results depend on the processing

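No called repair gene changed direction under any alternative, but no alternative used alone a feature that lay against its gene's call. Such DMBA features averaged 0.43 for Rev3l (0.05 to 0.99), -0.27 for Polb (-0.41 to -0.10) and -0.08 for Fancg (-0.37 to 0.07). The direction of these calls by single feature was therefore not tested, which includes Rev3l, listed below as held. Some repair genes that were not called changed sign over features of shared accessions. There the DMBA mean turned from 0.19 to -0.18 for Palb2 and from -0.17 to 0.06 for Fancd2. It turned from -0.05 to 0.0041 for Nbn and from -0.03 to 0.03 for Pms2. Of the 24 DMBA calls and the 28 untreated calls, 7 and 7 held under all 15 alternatives of their table: Atm, Ogg1, Lig3, Polh and Rev3l in both, with Ercc3 and Msh6 in the DMBA and Bard1 and Ercc4 in the untreated table. Most of the others were lost only against a fold of 1.5. There 5 of the 50 repair genes were called higher and 2 lower in the DMBA tumours, beside 5082 of all 19087 genes called. In the untreated tumours 6 were called higher and 1 lower, beside 4056 of all 16887 genes called. With the feature of largest mean size per gene, the DMBA median was 0.41. With DMBA 3 and 4 averaged, because they may come from 1 mouse, 17 repair genes were called higher and 4 lower in the DMBA tumours. All genes called numbered 10135 of 19087 there. The calls of Mre11a, Polb and Xpc were lost (limma adjusted p = 0.0634, 0.0663 and 0.0662). The groups then did not overlap for 12 repair genes (24%, beside 20.9% of all genes). Leaving out 1 tumour at a time, repair genes called higher numbered 17 to 19 (DMBA) and 21 to 24 (untreated), those called lower 3 to 4 and 4 to 5, all genes called 9792 to 10660 and 9263 to 9979, and the medians were 0.18 to 0.31 and 0.24 to 0.29. Between the groups, 7 to 9 genes were all above, 3 to 4 all below and 1 to 3 at least 1 apart (1 without DMBA 3 or untreated 1). With 1 tumour left out, 20% to 24% of the repair genes did not overlap, near the 19.3% to 22.1% of all genes. Among genes with 1 feature in each table the counts all above and at least 1 apart were 2 and 1. The cause was not tested, beyond the smaller number of genes (15) in that last setting. No paired analysis was possible because the tumour numbers only follow the order of deposit. The small number of arrays limits precision, and signal over background is not known here.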

Other observations

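Start sites of repair genes often lay close to that of a gene on the opposite strand. Of the 42 repair genes with a RefSeq promoter window, 18 (42.9%) had such a neighbour within 1000 bases upstream, beside 2012 of 13147 genes (15.3%) with values in both tables. These shares were not tested. The neighbours did not share a level with the repair gene in every pair. Nbr1, an autophagy receptor gene 152 bases from Brca1, averaged 1.38 ± 0.22 in the DMBA tumours and 1.02 ± 0.18 in the untreated tumours, both called higher. Npat, a histone gene regulator 376 bases from Atm, averaged 0.41 ± 0.25 and 0.22 ± 0.34, and only the DMBA mean passed limma's test. Abhd13, 37 bases from Lig4, averaged 1.04 ± 0.13 and 0.90 ± 0.44, both called higher, while Lig4 was called in neither table. Tmem167, 59 bases from Xrcc4, averaged -0.82 ± 0.12 and -0.46 ± 0.35, both called lower, while Xrcc4 was called higher in both. These 4 pairs were picked out after their values were seen.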
